A study of Drosophila melanogaster with 24 samples.

Results

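The cytochrome P450 genes of Drosophila melanogaster were followed through 8 stages of the life cycle. Members were all probes whose single platform gene symbol had the form Cyp, digits, lower-case letters and digits (such as Cyp4g1), or was phm, dib, sad, shd or spo. This rule used names and no measured value. It found 87 probes of 84 genes among 23808 probes, of which 13455 carried 1 gene symbol (11663 genes). No member was lost to a filter, and every member had a value on every array used. Spook, disembodied, shadow and shade were represented by 1 probe each. No probe with the symbol phm (phantom) was found, so that gene is not described here.

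P450 enzymes are haem proteins that insert oxygen into small molecules, taking electrons from a reductase in the endoplasmic reticulum or from a ferredoxin in the mitochondrion. Insect P450 genes fall into the CYP2, CYP3, CYP4 and mitochondrial clans. A few members have fixed tasks in development, among them the Halloween genes, whose products build the moulting hormone from dietary sterol. Many CYP3 and CYP4 members act instead on plant compounds, insecticides, fatty acids or odorants, often in gut, fat body and excretory tubules.

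The study compared embryos of 4-8 h, 8-12 h and 12-16 h, a pool of larval stages, pupal stages 1, 2 and 3, and young adults collected as males and females, frozen with no dissection described. Each stage was hybridized on 3 two-colour glass arrays against RNA of 0-4 h embryos, and the labels name no strain, genotype or treatment. Of 24 arrays, 23 held ratios, and pupal stage 1 was left with the arrays a and b, both with the stage in Cy5. The dye correction of that stage therefore came from the other stages. Values are log2 ratios, stage over 0-4 h reference, where 1 is a 2-fold difference. Each is a fitted value ± its standard error (SE), with the arrays a, b and c beside it. The fit removed a dye effect for each probe, so a fitted value can lie outside the plain mean of its arrays. A probe passed where the adjusted p was under 0.05 in limma's moderated test over all probes, and "rose" and "fell" refer to such calls. The labels speak of independent experiments but name no animals or cultures behind each array. The p-values therefore rest on array-to-array spread, part of which may be technical, and leave out the spread of the reference itself.

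Array medians differed before centring, and every direction is relative to the median probe. Without centring, the median of all probes was shifted by 0.65 for 4-8 h embryos, -0.97 for 8-12 h embryos, -1.60 for 12-16 h embryos, -1.08 for larvae, -1.42, -1.76 and -0.37 for pupal stages 1, 2 and 3, and -0.49 for adults. Arrays of one stage correlated across probes with r between 0.0828 (4-8 h arrays a and c) and 0.904 (pupal stage 2 arrays a and b). Arrays a and b at 4-8 h, a at 8-12 h and a of larvae had the narrowest spread of values (SD 0.822 to 0.966, against 1.08 to 1.82 on the other arrays). Stage labels were checked with marker genes. The 3 early-embryo markers fell at all 8 stages, and the 3 late-embryo cuticle probes rose at 12-16 h. The 3 glue-protein probes rose in larvae and pupal stage 1, with 2 of them higher again in pupal stage 3 (median 1.90) and none in pupal stage 2 (median 0.21). The 2 muscle probes rose from pupal stage 1 on, and 1 of them already passed in larvae (1.25). The 4 probes of the female yolk protein genes rose in pupal stage 2 (median 3.36), none passed in pupal stage 3 (median 0.01), and all rose in young adults (median 4.68). For a Yp2 probe the arrays of pupal stage 2 were 4.05, 4.17 and 4.85, and those of pupal stage 3 were 0.59, 0.43 and -0.19. The order of pupal stages 2 and 3, or what else the pools held, was not tested. Values for these stages are given under their labels.

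Across the 8 stages, 18 of the 87 P450 probes (20.7%) differed by limma's moderated F-test. This was close to the 21.0% of all probes and below the 27.7% of probes with 1 gene symbol. By clan, all 5 CYP2 probes (Cyp18a1, Cyp303a1, Cyp304a1, Cyp305a1 and spo) passed, against 3 of 11 mitochondrial, 6 of 38 CYP3 and 4 of 33 CYP4 probes. Of the 18, 8 were highest in young adults and 6 in 12-16 h embryos. The others were highest at 4-8 h, in larvae, in pupal stage 1 and in pupal stage 2, 1 probe each. The 12-16 h stage was also the most frequent lowest stage, for 4 of the 18. Peak stages were not counted over all probes, so these counts describe the members only. Arrays of 12-16 h (SD 1.58 to 1.78) and adults (1.41 to 1.82) spread more widely than those of 4-8 h (0.82 to 1.17). The part of this spread in the peaks was not tested.

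**Figure D1:**
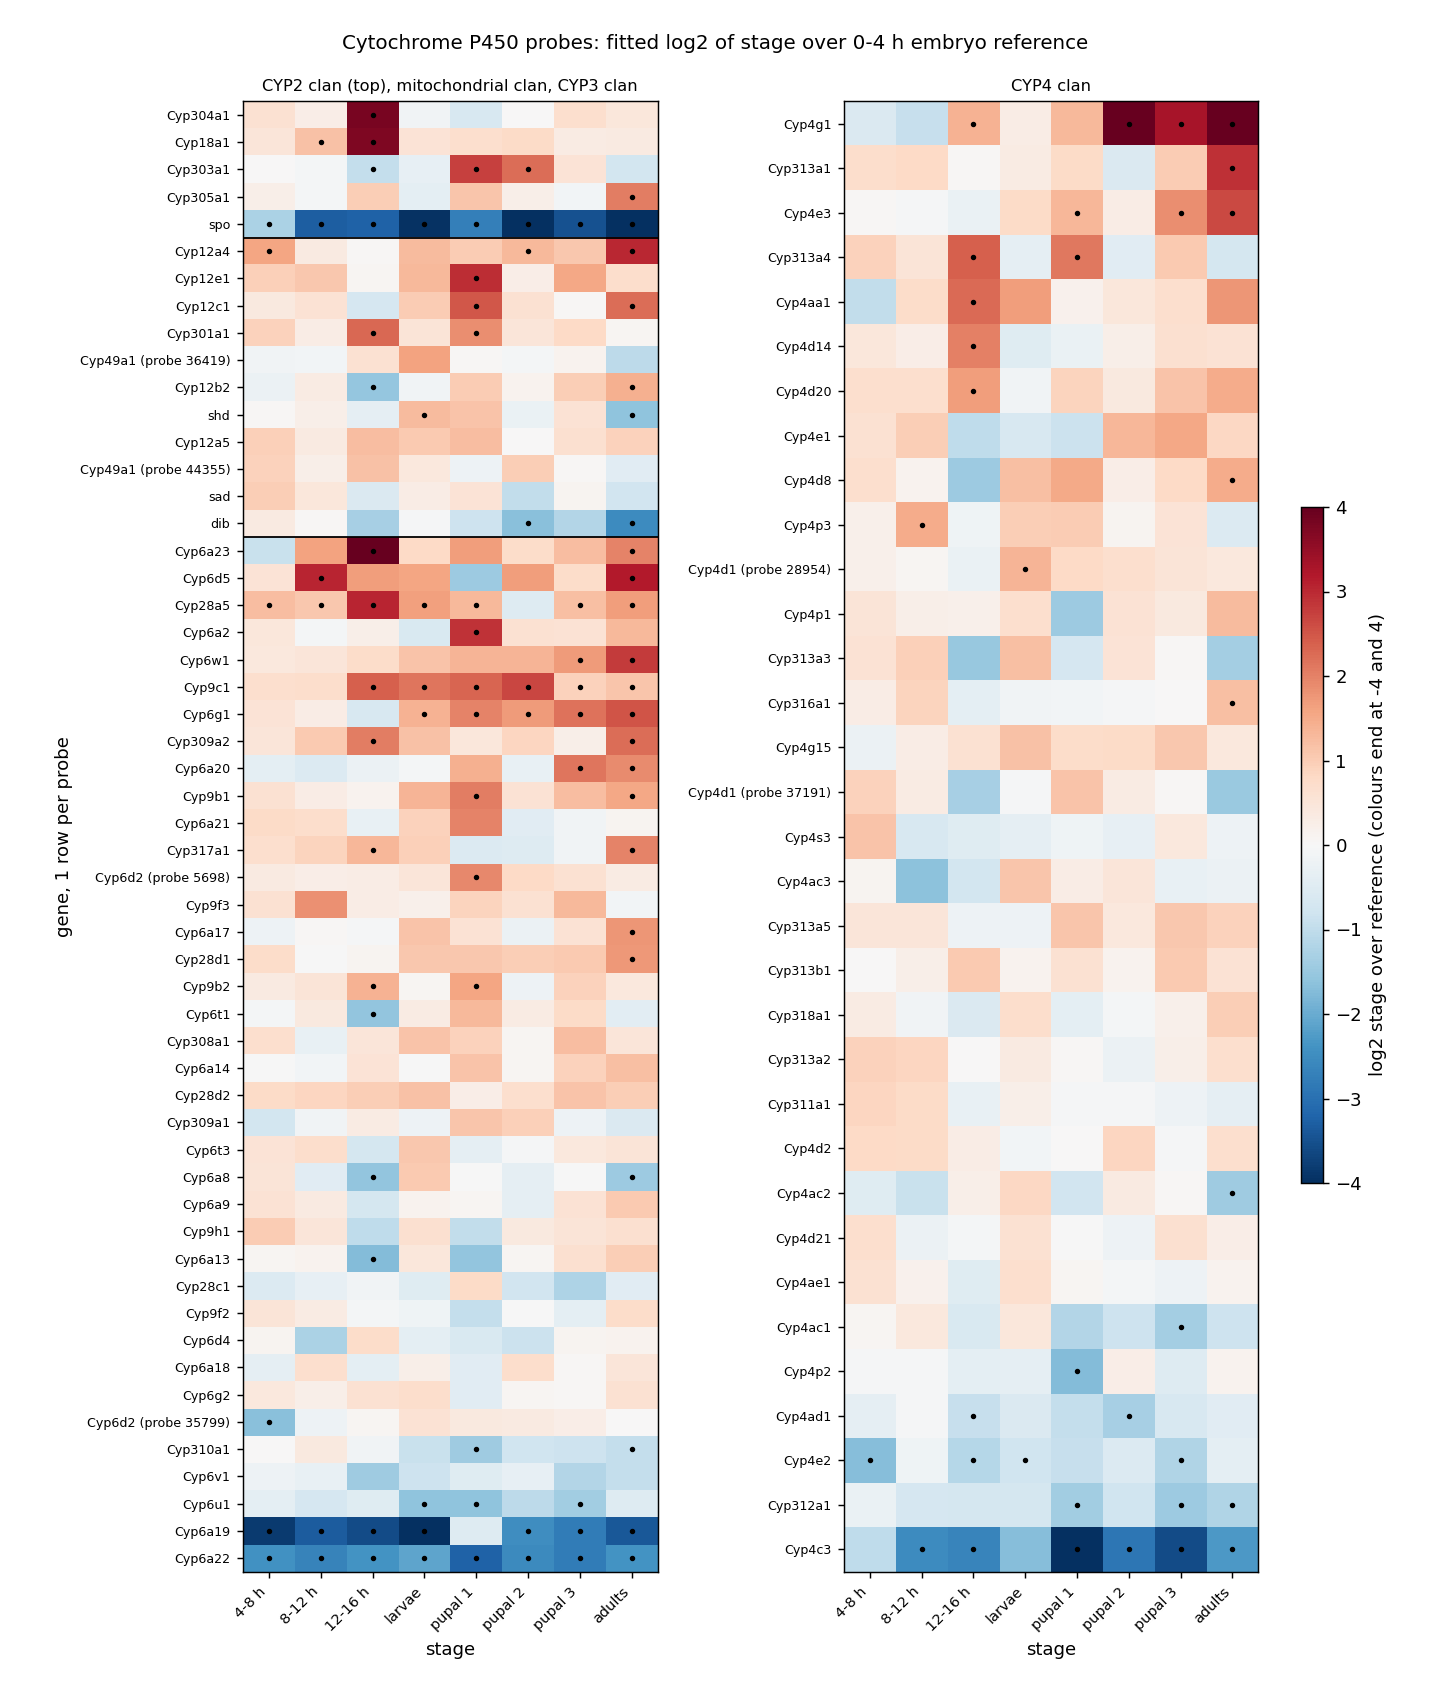
Fitted log2 of stage over the 0-4 h embryo reference for all 87 P450 probes, by clan and from the highest to the lowest peak within a clan. Columns are the 8 stages, red is higher and blue lower than the reference, colours end at -4 and 4, and a dot marks a probe that passed. Cyp4g1, at the top of the CYP4 clan, reached 4.80 in adults, and spo, Cyp6a22, Cyp6a19 and Cyp4c3 form the blue rows.

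Against the reference, 53 probes passed at 1 or more stages and 34 passed at none. Of the 53, 36 were higher and 20 lower (3 were higher at some stages and lower at another). The matching share of all probes was not counted, so these totals describe the members only. The calls were most numerous in young adults (21 higher, 10 lower) and in 12-16 h embryos (14 higher, 11 lower). At 4-8 h 2 P450 probes rose and 5 fell, where 1.49% of all probes rose and 5.94% fell, and at 8-12 h 4 rose and 4 fell (all probes 3.83% and 5.71%). At 12-16 h 16.1% of the family rose and 12.6% fell, near the 16.8% and 12.5% of all probes. In larvae 5 rose and 5 fell (all probes 8.76% and 14.7%). In pupal stage 1 the family had 13 higher and 7 lower probes (14.9% and 8.05%), where all probes had 7.58% and 16.2%. Fewer passed in pupal stage 2 (5 higher, 6 lower; all probes 9.3% and 16.0%) and pupal stage 3 (7 higher, 8 lower; all probes 9.53% and 19.5%). In adults 24.1% of the P450 probes rose and 11.5% fell, against 15.2% and 19.2% of all probes.

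The family's middle lay above that of all probes at 7 of the 8 stages. The median P450 value was 0.41 at 4-8 h, 0.28 at 8-12 h, 0.43 in larvae, 0.38, 0.14 and 0.50 in pupal stages 1, 2 and 3, and 0.49 in adults, while the all-probe medians ran from 0.00 to 0.08. The exception was 12-16 h, with -0.08 for P450 probes and 0.08 for all probes. From larvae onwards the share of P450 probes that fell was set beside that of probes with 1 gene symbol, as 5.75% against 21.5% in larvae, 8.05% against 23.7% in pupal stage 1, 6.9% against 24.3% in pupal stage 2, and 11.5% against 27.4% in adults. These shares are a description, since the stages share their reference.

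**Figure D2:**
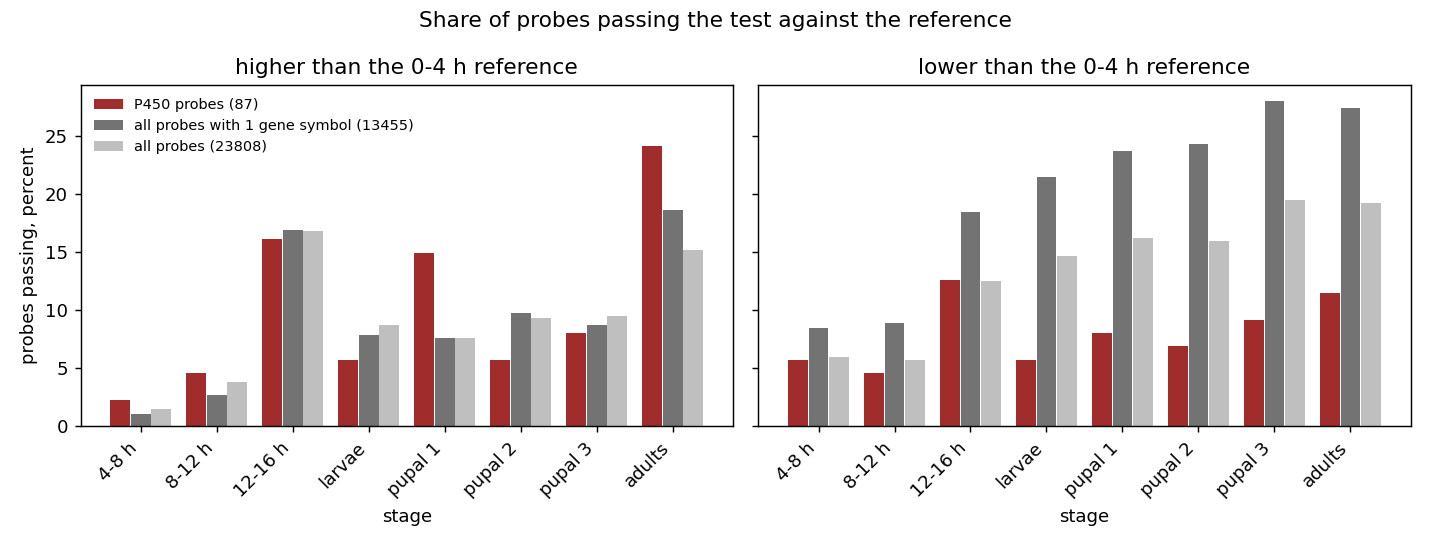
Percent of probes higher (left) and lower (right) than the 0-4 h reference at each of the 8 stages, for the 87 P450 probes, the 13455 probes with 1 gene symbol and all 23808 probes. In young adults 24.1% of P450 probes were higher and 11.5% lower, against 18.6% and 27.4% of probes with 1 symbol.

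These counts rest on few arrays. Of the 127 calls of a P450 probe at a stage, 53 held when each array of that stage was left out in turn: 1 of 7 at 4-8 h, 2 of 8 at 8-12 h, 11 of 25 at 12-16 h, 5 of 10 in larvae, 5 of 20, 6 of 11 and 7 of 15 in pupal stages 1, 2 and 3, and 16 of 31 in adults. The pupal stage 1 total of 20 became 5 without array a and 12 without the dye term. The 4-8 h total became 3 without array b and 1 without array c, and the 8-12 h total 3 or 4 without any 1 of its arrays. The pupal stage 2 total became 7 without array a and 6 without array b, the adult total 20 without array c, and the larval total 17 without array b of the 12-16 h stage. Left uncentred, higher against lower calls were 0 and 1 at 4-8 h, 1 and 8 at 8-12 h, 3 and 54 at 12-16 h, 0 and 16 in larvae, 0 and 22, 1 and 53, and 2 and 8 in pupal stages 1, 2 and 3, and 8 and 11 in adults, so the balance of directions holds only relative to the median probe.

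The ecdysteroid enzymes did not move as a block. Of the 6 genes with a probe in this group, spo fell at all 8 stages, dib and shd fell in adults, Cyp18a1 rose in embryos, and sad and Cyp6t3 passed at no stage. Spo encodes the P450 that acts near the start of moulting-hormone synthesis in the early embryo, and dib, sad and shd encode the hydroxylases of the last steps, shd in peripheral tissues. Cyp18a1 inactivates the hormone, and Cyp6t3 has been linked to its synthesis in the larval prothoracic gland.

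Spo arrays were -0.77, -1.26 and -1.82 at 4-8 h, -2.99, -3.16 and -3.78 at 8-12 h, and -3.23, -3.02 and -3.46 at 12-16 h. They were -3.77, -3.95 and -4.15 in larvae, -1.78 and -3.75 in pupal stage 1, and -4.11, -4.25 and -4.16 in pupal stage 2. Pupal stage 3 gave -4.02, -3.68 and -2.74, and young adults -3.96, -4.08 and -4.11. Every array lay below the reference, the 4-8 h arrays nearest to it together with 1 array of pupal stage 1, and the 8-12 h arrays did not overlap with those of 4-8 h. The fitted values were -1.27 ± 0.34 at 4-8 h (adjusted p = 0.0249), -3.30 ± 0.34 at 8-12 h (adjusted p = 6.02e-06), and between -2.73 ± 0.43 in pupal stage 1 and -4.18 ± 0.34 in pupal stage 2 later. The 4-8 h call was lost without array b (-1.29) or c (-0.91), and the 7 later ones held without each of their arrays. The step of -2.03 ± 0.48 between 8-12 h and 4-8 h did not pass over all probes (unadjusted p = 0.000384, adjusted p = 0.416). Early-embryo markers fell in the same samples, and RNA of a few cells cannot be told apart from a low level per cell in whole animals.

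Dib arrays in young adults were -1.53, -4.24 and -1.77, all below the reference. The fitted adult value was -2.53 ± 0.54 (adjusted p = 0.00101), and it held without each adult array. In pupal stage 2 dib stood at -1.67 ± 0.54 (arrays -2.01, -1.77 and -1.21, adjusted p = 0.0276), a call lost without any 1 of those arrays (-1.49, -1.61 and -1.98). At the other 6 stages dib ran from -1.32 to 0.36 and did not pass.

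Shd was higher in larvae and lower in young adults than the reference. Its arrays were -1.47, -0.84 and -2.26 in adults and 0.77, 1.63 and 1.64 in larvae, with no overlap. The adult value was -1.60 ± 0.41 (adjusted p = 0.00418) and the larval one 1.27 ± 0.41 (adjusted p = 0.0297). The adult call was lost without array c (-1.16), and the larval one without array a (1.43), b (1.20) or c (1.20). The difference itself, tested after these values were seen, was -2.87 ± 0.57 for adults minus larvae (adjusted p = 0.00409). Sad ran from -0.98 ± 0.56 in pupal stage 2 (adjusted p = 0.237) to 0.97 ± 0.56 at 4-8 h (adjusted p = 0.368), and its 12-16 h arrays were as far apart as -1.84 and 2.38. Cyp6t3 ran from -0.72 ± 0.44 at 12-16 h to 1.08 ± 0.44 in larvae (adjusted p = 0.0843).

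Cyp18a1 was high in 12-16 h embryos. Its arrays there were 3.96, 3.63 and 3.50, against 1.08, 1.09 and 1.42 at 8-12 h and 0.85, 0.11 and 0.63 at 4-8 h. The 12-16 h arrays were thus above every other array of the gene, the next highest being 1.58 in pupal stage 2. The 12-16 h value was 3.73 ± 0.31 (adjusted p = 3.32e-08) and exceeded that at 8-12 h by 2.57 ± 0.45 (adjusted p = 0.00168). The larval value of 0.56 ± 0.31 lay 3.17 below it on the log2 scale (larvae minus 12-16 h -3.17 ± 0.44, adjusted p = 0.000133). The 8-12 h call itself (1.17 ± 0.31, adjusted p = 0.021) was lost without array a (1.26), b (1.14) or c (1.09). From larvae to adults Cyp18a1 stayed between 0.32 and 0.78 and did not pass.

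**Figure D3:**
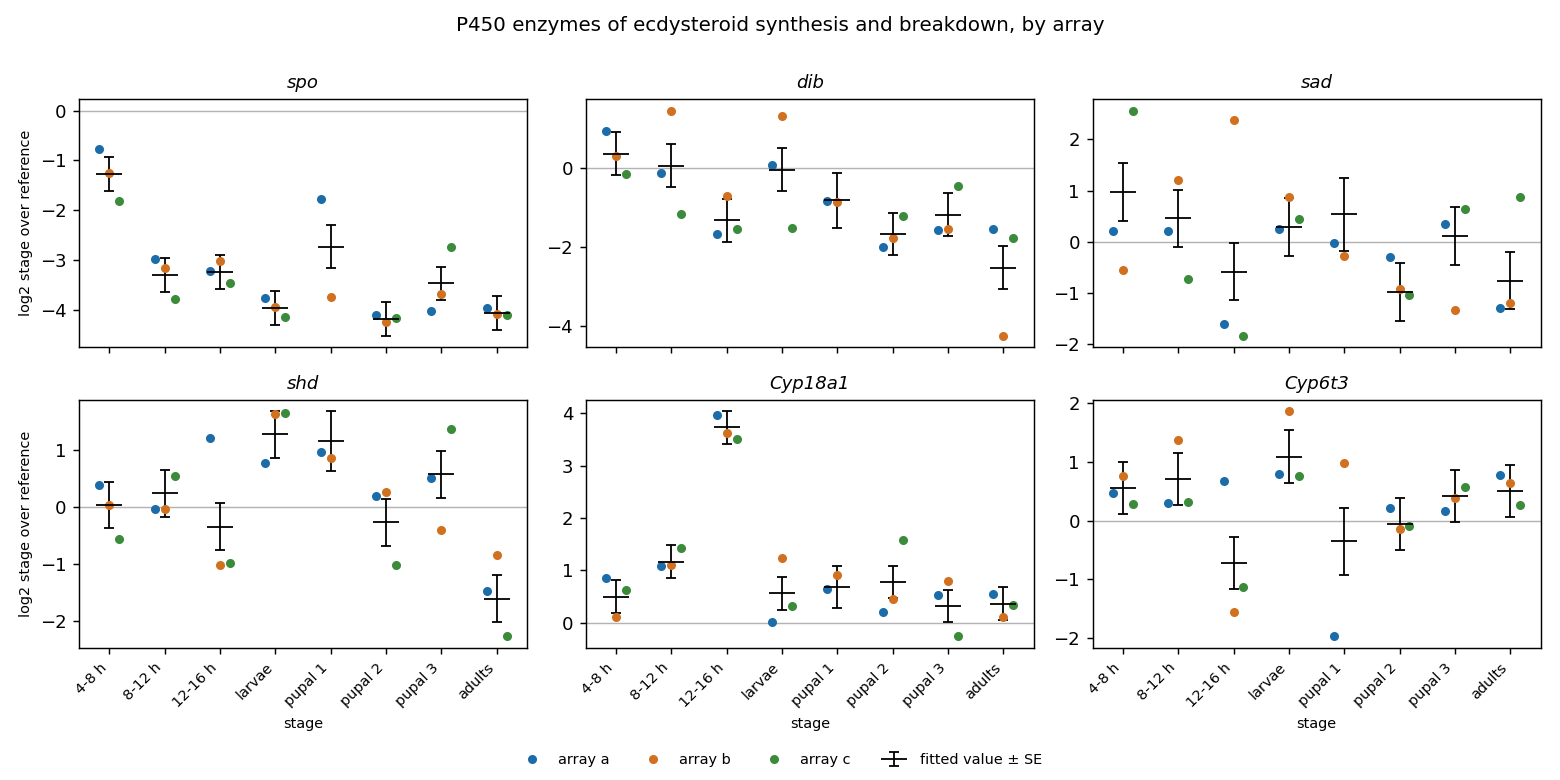
Log2 of stage over the 0-4 h embryo reference at the 8 stages for spo, dib, sad, shd, Cyp18a1 and Cyp6t3, with 1 point per array and a bar at the fitted value ± SE. The spo arrays lie below 0 at every stage, the Cyp18a1 arrays peak at 12-16 h between 3.50 and 3.96, and the shd arrays are above 0 in larvae and below it in adults.

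Genes of this pathway outside the family were read from lists. Of 8 probes for non-P450 genes of ecdysteroid synthesis, 1 rose and 3 fell at 12-16 h, where 16.8% and 12.5% of all probes did. None passed at 4-8 h or 8-12 h, and later 2 fell in larvae, 2, 3 and 3 in pupal stages 1, 2 and 3, and 2 in adults, with none higher. The riser was Npc1a, a sterol trafficking protein (1.99 ± 0.36, adjusted p = 0.000265), and ecd, needed for ecdysteroid production, fell to -1.63 ± 0.32 (adjusted p = 0.000535). The zinc-finger regulators woc and mld fell from 12-16 h on, woc to between -1.20 and -2.07 apart from pupal stage 1, where it did not pass (-1.13 ± 0.44), and mld to between -1.05 and -2.45. Among 15 probes of hormone-response transcription factors, 12 fell in adults, with a median of -1.36, against 19.2% of all probes. The 15 probes stand for only 9 genes, so some genes count more than once, and Eip74EF and Eip75B had no probe. A further 5 calls were lower at 4-8 h (5.94% of all probes), 6 in larvae (14.7%), 7 in pupal stage 3 (19.5%), and 2 in each of pupal stages 1 and 2 (16.2% and 16.0%). The 12 adult calls included EcR, the hormone receptor, whose 2 probes stood at -1.65 ± 0.26 and -1.97 ± 0.28, and usp, its partner (-1.21 ± 0.33). At 12-16 h, where Cyp18a1 peaked, 1 of the 15 passed, a probe of the nuclear receptor Hr3 at 2.35 ± 0.62 (adjusted p = 0.00641), while the second Hr3 probe stood at 0.19 ± 0.28 and did not pass.

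The 3 genes with known roles in cuticle and sense organs all passed the F-test, each with its own timing. Cyp4g1 had the widest range of the family (5.71). It encodes the oenocyte enzyme that makes the hydrocarbons of the waxy cuticle surface. Its arrays were -0.83, 0.40 and -1.14 at 4-8 h, -1.21, -0.90 and -0.47 at 8-12 h, 0.70, 2.49 and 0.87 at 12-16 h, and -0.63, 0.58 and 0.85 in larvae. They were 1.13 and 1.77 in pupal stage 1, 3.72, 3.89 and 4.53 in pupal stage 2, 3.65, 3.72 and 2.68 in pupal stage 3 and 5.66, 3.75 and 4.84 in young adults. The arrays of pupal stages 2 and 3 and of adults lay above all others of this gene. The fitted values were 4.10 ± 0.42 (adjusted p = 8.53e-07), 3.30 ± 0.42 (adjusted p = 6.16e-06) and 4.80 ± 0.42 (adjusted p = 6.31e-08), and each held without any 1 array of its stage. The steps between neighbours did not pass over all probes: 2.79 ± 0.70 for pupal stage 2 minus 1 (adjusted p = 0.0805), -0.80 ± 0.60 for pupal stage 3 minus 2 (adjusted p = 0.73), and 1.50 ± 0.60 for adults minus pupal stage 3 (adjusted p = 0.281).

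Cyp4g1 also passed at 12-16 h (1.40 ± 0.42, adjusted p = 0.0156), a call lost without array b (0.79) and turned to -0.28 when arrays were left uncentred. Its rise over 8-12 h, 2.31 ± 0.60 (adjusted p = 0.0281), was lost without array a (2.10) or b (2.41) of 8-12 h or array b of 12-16 h (1.72), though the arrays of the 2 stages did not overlap.

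Cyp303a1, needed for the development of sensory bristles, was high in the first pupal stages. Its arrays were 3.04 and 2.21 in pupal stage 1 and 2.41, 3.00 and 1.39 in pupal stage 2, above the arrays of every other stage, of which the highest was 0.66 in pupal stage 3. The values were 2.72 ± 0.45 (adjusted p = 0.0002) and 2.24 ± 0.35 (adjusted p = 8.61e-05), and both held without any 1 of their arrays. Left uncentred, neither passed (1.29, adjusted p = 0.168, and 0.475, adjusted p = 0.445). With only the arrays compared, the pupal stage 1 value was 2.62 and did not pass (adjusted p = 0.055). Pupal stage 1 exceeded larvae by 3.03 ± 0.58 (adjusted p = 0.0158), the only P450 call of that step. The step was lost without array a of pupal stage 1 (2.62) and when the 4 arrays of narrow spread were all left out (2.76). At 12-16 h the gene stood at -0.94 ± 0.35 (arrays -1.07, -0.44 and -1.22, adjusted p = 0.0494), a call lost without array a (-0.83) or c (-0.83).

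Cyp301a1, a mitochondrial P450 involved in forming adult cuticle, rose at 12-16 h and in pupal stage 1. The 12-16 h arrays were 3.42, 3.76 and 0.47, so array c was near the reference. The values were 2.30 ± 0.36 (adjusted p = 5.2e-05) at 12-16 h and 1.86 ± 0.46 (arrays 1.10 and 1.11, adjusted p = 0.00549) in pupal stage 1. The first held without each of its arrays but stood at 0.97 where only spot pairs with an SD under 0.3333 were used (close duplicate spots, adjusted p = 0.141). The second stood at 1.10 without the dye term (adjusted p = 0.291) and was lost without either array (1.87 and 1.85), since 1 array then carries the stage.

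A larger set of genes peaked in 12-16 h embryos, the stage at which the cuticle markers rose (median 6.48). Cyp6a23, a CYP3 member, had arrays of 5.49, 3.04 and 4.42 there and a fitted value of 4.11 ± 0.61 (adjusted p = 3.08e-05), the highest of the family at this stage. Cyp304a1, of the CYP2 clan, had 4.32, 3.73 and 3.53 and a value of 3.80 ± 0.37 (adjusted p = 2.07e-07). Outside 12-16 h no Cyp304a1 array exceeded 1.35, and the gene passed at no other stage. Its 12-16 h value exceeded that at 8-12 h by 3.52 ± 0.53 (adjusted p = 0.00045), and larvae lay below it (-3.95 ± 0.52, adjusted p = 8.91e-05). Both steps of Cyp304a1 and of Cyp18a1 held without any 1 array of the stages compared. With arrays scaled to one spread, the rise of Cyp18a1 over 8-12 h was 1.35 and did not pass (adjusted p = 0.126). Left uncentred, neither step of Cyp18a1 passed (adjusted p = 0.296 and 0.0897), nor did the rise of Cyp304a1 over 8-12 h (adjusted p = 0.102). With only the arrays compared, none of these steps of Cyp304a1 and Cyp18a1 passed (adjusted p from 0.0564 to 0.123).

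Cyp28a5 passed at 7 of 8 stages, all higher, and most at 12-16 h (3.04 ± 0.32, arrays 3.51, 4.96 and 1.58, adjusted p = 5.99e-07). That call, the larval one (1.63 ± 0.32, arrays 1.09, 2.58 and 2.17) and the adult one (1.67 ± 0.32, arrays 0.44, 2.60 and 2.90) held without each of their arrays. None of the 7 calls passed limma's test when arrays were left uncentred. The uncentred values were 1.36 at 12-16 h (adjusted p = 0.0548), 0.49 in larvae (adjusted p = 0.546) and 1.115 in adults (adjusted p = 0.207). The calls at 4-8 h (1.22 ± 0.32) and 8-12 h (1.07 ± 0.32) were lost without any 1 array of the stage (values of 1.08 to 1.46 and 0.96 to 1.13). The call in pupal stage 1 (1.31 ± 0.41) was lost without array a (0.72) or without the dye term (0.37, adjusted p = 0.785) and became -0.12 uncentred, and that in pupal stage 3 (1.21 ± 0.32) was lost without array c (1.16).

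Cyp9c1 held a plateau. Its arrays were 3.04, 1.91 and 2.27 at 12-16 h, 1.21, 2.86 and 2.48 in larvae, 2.17 and 2.35 in pupal stage 1 and 2.54, 2.81 and 2.72 in pupal stage 2. The values were 2.38, 2.15, 2.34 and 2.66 (SE 0.33 to 0.42), all held without any 1 of their arrays. Pupal stage 3 (0.92 ± 0.33) and adults (1.09 ± 0.33) also passed. The first was lost without any 1 array (0.94, 0.92 and 0.88) and the adult one without array c (0.96). Cyp313a4, of the CYP4 clan, passed at 12-16 h (2.38 ± 0.48, arrays 2.59, 2.80 and 2.27, adjusted p = 0.000717) and in pupal stage 1 (2.11 ± 0.61, arrays 2.12 and 1.07). The first call was lost with close duplicate spots only (1.64, adjusted p = 0.0621), and the pupal one without array a (1.58) or the dye term (1.59, adjusted p = 0.116). Cyp4d14, also of the CYP4 clan, had 12-16 h arrays of 3.19, 0.90 and 1.90 (2.01 ± 0.43, adjusted p = 0.00113), a call that held without each array and was its only one.

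Between 8-12 h and 12-16 h embryos 6 P450 probes rose and none fell, against 3.98% and 1.13% of all probes. The risers were Cyp304a1, Cyp18a1, Cyp4g1, Cyp301a1 (2.00 ± 0.51), Cyp28a5 (1.97 ± 0.46) and Cyp9c1 (1.68 ± 0.47), and 19 probes had an unadjusted p under 0.05. The total became 2 without array b of 8-12 h. Cyp301a1 was lost without array b (1.54) or c (2.03) of 8-12 h and without a (1.82) or b (1.66) of 12-16 h. Cyp28a5 was lost without array b of 8-12 h (1.90), and its arrays of the 2 stages overlapped. Cyp9c1 was lost without array a (1.69) or b (1.32) of 8-12 h and without a (1.40) or c (1.69) of 12-16 h.

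Between 4-8 h and 8-12 h no P450 probe passed in limma's test (7 had an unadjusted p under 0.05), and only 0.0084% and 0.0042% of all probes rose and fell.

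Larvae against 12-16 h embryos gave 4 higher and 6 lower P450 probes (4.6% and 6.9%), where all probes had 2.63% and 7.6%, so the lower share was near that of all probes. Some of the genes high at 12-16 h, among them Cyp18a1 and Cyp304a1, were lower in larvae, while Cyp9c1, Cyp28a5 and Cyp4g1 did not pass. The lowest were Cyp304a1, Cyp6a23 (-3.31 ± 0.86, adjusted p = 0.0181), Cyp18a1 and Cyp313a4 (-2.75 ± 0.67, adjusted p = 0.0129), each with no overlap between arrays, followed by Cyp4d14 (-2.48 ± 0.60, adjusted p = 0.0117) and Cyp301a1 (-1.78 ± 0.50, adjusted p = 0.029). The Cyp6a23 call was lost without larval array a (-2.72) or array a (-2.91) or c (-2.78) of 12-16 h, the Cyp313a4 call without larval array c (-2.06), and the Cyp301a1 call without larval array b (-1.77) or c (-1.56) or array a (-1.59) or b (-1.41) of 12-16 h. The higher probes were Cyp313a3 (2.73 ± 0.83), Cyp4d8 (2.66 ± 0.80), Cyp6a8 (2.61 ± 0.75) and Cyp6g1 (2.03 ± 0.56). Their larval arrays were -0.19, 3.72 and 0.42 for Cyp313a3, 0.28, 1.35 and 1.86 for Cyp6a8, and -0.58, 2.36 and 2.89 for Cyp6g1. The Cyp313a3 call was lost without larval array b (1.59) or 12-16 h array a (2.20) or b (2.96). The Cyp6g1 call was lost without larval array b (1.80) or c (1.52) or 12-16 h array b (1.83), and the Cyp6a8 call without any of 5 arrays (2.37 to 2.86). The total of 10 became 6 without larval array b or c or array b of 12-16 h, and in the last case no probe was higher.

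Against the reference, the larval calls were led by Cyp9c1 and Cyp28a5 upwards and by Cyp6a19 and spo downwards. Cyp4d1 rose by one of its probes to 1.37 ± 0.40 (arrays 0.35, 1.63 and 2.01, adjusted p = 0.016), a call lost without array b (1.18) or c (0.99). Cyp6u1 fell to -1.60 ± 0.40 (arrays -0.24, -3.07 and -1.86, adjusted p = 0.00624), a call lost without array b (-1.05).

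Of 8 insecticide-linked genes with a probe, Cyp6g1 alone passed the F-test. It metabolizes DDT and neonicotinoids, and its overproduction confers resistance. Its arrays were -0.22, -0.50 and -0.69 at 12-16 h, 1.73 and 1.17 in pupal stage 1, 2.01, 2.94 and 0.66 in pupal stage 2, 1.76, 1.86 and 2.34 in pupal stage 3 and 1.92, 2.84 and 3.33 in adults. All arrays from pupal stage 1 on lay above those of 12-16 h embryos. The values in pupal stage 3 (2.16 ± 0.40, adjusted p = 0.000345) and adults (2.52 ± 0.40, adjusted p = 6.07e-05) held without each of their arrays. Those in larvae (1.38 ± 0.40, lost without array b, 1.16, or c, 0.89), pupal stage 1 (1.99 ± 0.51, lost without a, 1.71, or the dye term, 1.45) and pupal stage 2 (1.69 ± 0.40, lost without b, 1.34, and -0.07 uncentred) did not.

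Cyp12a4, a mitochondrial P450 linked to lufenuron resistance, rose in adults to 3.01 ± 0.47 (arrays 3.87, 2.37 and 2.78, adjusted p = 4.74e-05), and the call held without each array. Its calls at 4-8 h (1.59 ± 0.47) and in pupal stage 2 (1.30 ± 0.47) were lost without any 1 array of the stage (1.00 to 1.95 and 1.10 to 1.72), and the pupal one was -0.46 uncentred. Cyp6a2, overproduced in several resistant strains, stood at 2.88 ± 0.69 in pupal stage 1, where array a was 4.27 and array b 0.61. The call was lost without array a (1.05). Cyp6a8 stood below the reference at 12-16 h (-1.56 ± 0.54, lost without any 1 array, -1.45 to -1.77) and in adults (-1.46 ± 0.54, lost without array c, -0.57). Cyp9b2 rose at 12-16 h (1.40 ± 0.38, arrays 0.45, 1.69 and 2.13, adjusted p = 0.00787) and in pupal stage 1 (1.57 ± 0.48, arrays 2.47 and 0.54, adjusted p = 0.0226), calls lost without array c (0.90) and without array a (0.61). Cyp6a9, Cyp6g2 and Cyp308a1 passed at no stage, with values from -0.71 to 1.23.

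Other calls of pupal stage 1 rested on the same array. Cyp12e1 (2.94 ± 0.74, arrays 4.38 and 0.62) and Cyp12c1 (2.48 ± 0.82, arrays 3.57 and 0.42), both mitochondrial, were lost without array a (1.06 and 0.90), the array with the widest gap between duplicate spots of all 23 (median SD 0.838). With close duplicate spots only, Cyp12e1 stood at 0.89 (adjusted p = 0.176) and Cyp12c1 at 0.42 (adjusted p = 0.411), and neither passed. Cyp4e3 likewise stood at 0.44 in this stage (adjusted p = 0.388).

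**Figure D4:**
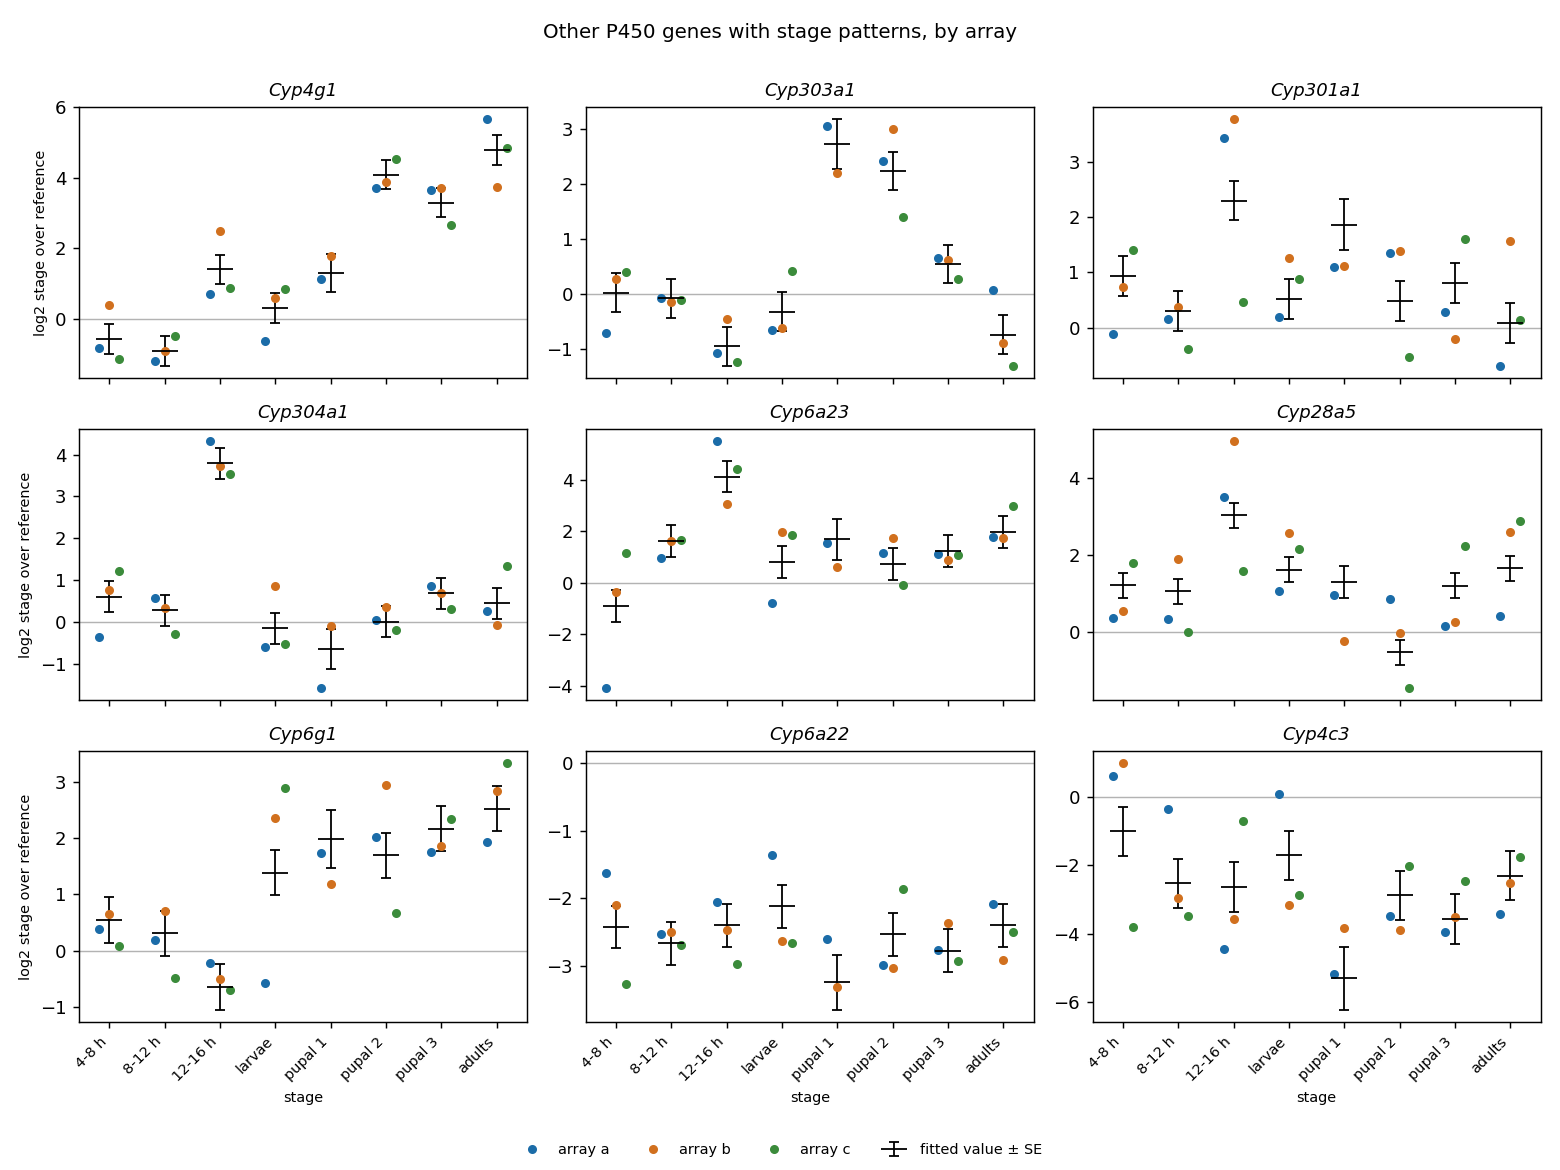
Log2 of stage over the 0-4 h embryo reference at the 8 stages for 9 P450 genes, with 1 point per array, a bar at the fitted value ± SE and a vertical scale of its own in each panel. Cyp4g1 is high from pupal stage 2 on, Cyp303a1 in pupal stages 1 and 2, Cyp304a1 at 12-16 h, and all Cyp6a22 arrays lie below 0.

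Young adults had the largest number of P450 calls, and 12 of the 21 higher probes belonged to the CYP3 clan, the largest clan with 38 of the 87 probes. Beside Cyp4g1, Cyp12a4 and Cyp6g1, the highest values were those of Cyp6d5 and Cyp313a1. Cyp6d5 had adult arrays of 3.58, 2.94 and 3.00 (3.18 ± 0.66, adjusted p = 0.000775). Cyp313a1 had 2.28, 2.78 and 4.21 (2.93 ± 0.42, adjusted p = 2.03e-05), above all its arrays at other stages. Cyp4e3 had 1.82, 3.19 and 3.03 (2.64 ± 0.36, adjusted p = 1.01e-05) after 1.95, 1.68 and 1.78 in pupal stage 3 (1.85 ± 0.36, adjusted p = 0.000529). These 4 calls held without any 1 array of their stage.

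Other adult calls also held without each array. Cyp6w1, a CYP3 member, had adult arrays of 2.12, 2.78 and 3.91 (2.79 ± 0.50, adjusted p = 0.000178). Cyp309a2 had 2.84, 2.23 and 1.45 (2.25 ± 0.45, adjusted p = 0.000524), and Cyp305a1, of the CYP2 clan, had 1.30, 1.31 and 3.76 (2.03 ± 0.40, adjusted p = 0.000478), where 1 array lay far above the others. Cyp28d1 stood at 1.74 ± 0.48 (arrays 1.28, 2.29 and 2.01). Cyp6a23, highest at 12-16 h, passed again in adults (1.97 ± 0.61, arrays 1.78, 1.75 and 2.98, adjusted p = 0.0164), a call lost without array a (1.71) or c (1.77). These genes were among the 21 higher in adults, and those other than Cyp6a23 were named after their values were seen.

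Cyp6d5 had also risen at 8-12 h (3.06 ± 0.66, arrays 1.83, 3.80 and 3.57), a call lost without array b (2.57) or c (2.82). Cyp4e3 in pupal stage 1 (1.32 ± 0.46, arrays 1.90 and 0.50) was lost without array a (0.63) and was -0.11 uncentred. Cyp6a20, a gene linked to male aggression, passed in pupal stage 3 (2.15 ± 0.69, arrays 1.97, 2.02 and 2.00) but lost the call without array a (2.01) or b (1.99). In the same samples the gut markers rose in adults for 20 of 25 probes (median 2.32) and in larvae for 21 of 25 (median 3.14), against 9, 6 and 1 of 25 in pupal stages 1, 2 and 3. The 6 fat body probes rose at all 5 post-embryonic stages, with medians from 3.54 in pupal stage 3 to 6.54 in pupal stage 2. The part of tissue content in the P450 values was not tested.

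Feeding stages were set against non-feeding ones as the mean of larvae and young adults minus the mean of the 3 pupal stages. Of the P450 probes 1 was higher and 1 lower, against 1.32% and 0.55% of all probes, and 14 had an unadjusted p under 0.05. Cyp317a1, of the CYP3 clan and named here after its values were seen, averaged 1.47 in feeding and -0.40 in pupal stages (1.87 ± 0.37, adjusted p = 0.011). Its arrays in larvae were 0.35, 1.75 and 1.08 and in adults 1.63, 2.51 and 2.16, and those of pupal stages ran from -1.24 to 0.47, so 1 larval array fell within the pupal range. Against the reference Cyp317a1 passed in adults (1.99) and in 12-16 h embryos (1.34), but not in larvae. The 12-16 h call was lost without array a (0.95) or c (0.77). Cyp303a1 averaged -0.52 in feeding and 1.84 in pupal stages (-2.36 ± 0.34, adjusted p = 0.00074), although 1 larval array (0.43) lay above 1 array of pupal stage 3 (0.27). The total became 4 without array b of the 12-16 h stage. Of the 25 gut probes, 15 were higher in feeding stages, with a median of 1.92.

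The remaining steps between successive stages gave 1 P450 call in all. Pupal stage 1 against larvae gave Cyp303a1 (0.458% of all probes rose and 0.538% fell), and 17 P450 probes had an unadjusted p under 0.05. The total became 0 without array a of pupal stage 1, 6 without its array b, and 2 without array b of 12-16 h. Pupal stage 2 against 1 gave none (13 at an unadjusted p under 0.05; all probes 0.449% and 0.189%), but 7 without array b of pupal stage 1, 2 without array b of 12-16 h and 1 without larval array a. Pupal stage 3 against 2 gave none (7 at an unadjusted p under 0.05; all probes 0.0294% and 0.311%). Adults against pupal stage 3 gave none (11 at an unadjusted p under 0.05; all probes 1.1% and 0.0882%), but 2 without array a or b of 12-16 h and 1 without larval array a or adult array b.

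A few genes stayed below the 0-4 h reference. Cyp6a22, a CYP3 member, fell at all 8 stages, with values from -2.12 ± 0.32 in larvae to -3.25 ± 0.41 in pupal stage 1. Each of its 23 arrays lay between -1.36 and -3.32, and every call held without any 1 array of its stage. Unlike spo, it did not pass the F-test. Cyp6a19 fell at 7 stages and most in larvae (-4.86 ± 0.76, arrays -3.70, -6.35 and -4.91, adjusted p = 0.000105). Its calls at 12-16 h (-3.59 ± 0.76), in larvae and in adults (-3.38 ± 0.76) held without each array. Those at 4-8 h (-3.82 ± 0.76, lost without c, -3.60), 8-12 h (-3.32 ± 0.76, lost without a, -2.68, or c, -2.86), pupal stage 2 (-2.48 ± 0.76, lost without any 1, -2.03 to -2.80) and pupal stage 3 (-2.78 ± 0.76, lost without c, -1.64) did not. In pupal stage 1 its 2 arrays were 2.47 and -2.74 and it did not pass.

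Cyp4c3, of the CYP4 clan, fell at 6 stages and most in pupal stage 1 (-5.30 ± 0.92, arrays -5.17 and -3.84, adjusted p = 0.000332). Without the dye term this value was -4.50, against -4.98 for Cyp6a19 in larvae, so which member was lowest depends on that term. Pupal stages 2 (-2.88 ± 0.72) and 3 (-3.57 ± 0.72) also held without each array. The calls at 8-12 h (-2.53 ± 0.72, lost without b, -2.76, or c, -1.65), 12-16 h (-2.64 ± 0.72, lost without a, -2.13) and in adults (-2.30 ± 0.72, lost without a, -1.11) did not. At 4-8 h its arrays ran from -3.82 to 0.98. Cyp4e2 fell at 4 stages and by most at 4-8 h (-1.70 ± 0.28, arrays -0.74, -1.51 and -2.46, adjusted p = 0.000915). That call was lost without array c (-1.46), the 12-16 h one (-1.16 ± 0.28) without c (-0.86) and the larval one (-0.80 ± 0.28) without any 1 array (-0.62 to -0.89). The one in pupal stage 3 (-1.21 ± 0.28, arrays -0.51, -0.87 and -1.86) held. Cyp4p2 fell in pupal stage 1 (-1.73 ± 0.42, arrays -2.11 and -0.97) and was lost without array a (-1.15).

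For 3 genes, 2 probes were measured, and they did not give the same calls. Of the Cyp6d2 probes, probe 35799 fell at 4-8 h (-1.66 ± 0.45, arrays -0.36, -3.12 and -1.28), a call lost without array b (-0.82) or c (-2.05), where probe 5698 stood at 0.37 ± 0.38. Probe 5698 rose in pupal stage 1 (1.93 ± 0.48, arrays 1.51 and 1.77), lost without either array (2.06 and 1.80), where probe 35799 stood at 0.38 ± 0.58. For Cyp4d1, probe 28954 rose in larvae as given above and probe 37191 stood at -0.05 ± 0.67, with arrays from -2.83 to 3.30. Neither Cyp49a1 probe passed at any stage, with values from -1.05 to 1.61.

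Many P450 genes lie in clusters, and neighbours in the RefSeq gene order (assembly Release 6 plus ISO1 MT) were compared. Of the members, 27 probe pairs were adjacent, from 41 genes. The correlation of their 8 stage values had a median of 0.11 (range -0.51 to 0.90), against 0.01 over all 3741 member pairs. The stage values share their reference and arrays, so these are descriptions. The closest pair was Cyp4p2 and Cyp4p1 (r = 0.90). In none of the 27 pairs did both genes pass the F-test, but only 20.7% of members passed it, so this count says little about neighbours. In the run from Cyp6a22 to Cyp317a1 the values farthest from 0 came from different stages. They were -3.25 for Cyp6a22 (pupal stage 1), 1.78 for Cyp6a17 (adults), 4.11 for Cyp6a23 (12-16 h) and -4.86 for Cyp6a19 (larvae). The rest of the run had 1.04 for Cyp6a9, 2.15 for Cyp6a20, 1.99 for Cyp6a21, -1.56 for Cyp6a8 and 1.99 for Cyp317a1. Probe sequences were not used here, so how far close paralogs share signal was not tested.

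Genes that work beside the P450 enzymes were read from lists. Of 4 probes on the electron-donor list, Cyt-b5-r, a cytochrome b5-related protein and not the b5 reductase, rose in adults to 4.32 ± 0.40 (arrays 3.95, 3.67 and 5.29, adjusted p = 1.05e-07) and also in larvae (2.18 ± 0.40) and all 3 embryonic stages (1.43 to 1.97). Fdx2, a mitochondrial ferredoxin, fell in pupal stage 1 (-1.50 ± 0.38) and pupal stage 3 (-1.17 ± 0.30). Of 10 probes for regulators of detoxification genes, 5 fell in pupal stage 2 (16.0% of all probes), and 1 rose and 3 fell in adults (15.2% and 19.2% of all probes).

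Of the conjugating enzymes, 9 of 36 UDP-glycosyltransferase probes rose and 2 fell at 12-16 h, where 16.8% and 12.5% of all probes did, led by Ugt317A1 (3.83 ± 0.32, arrays 4.19, 3.84 and 3.80). In larvae 7 rose and 1 fell (all probes 8.76% and 14.7%). In adults 8 rose and 2 fell (all probes 15.2% and 19.2%), led by Ugt305A1 (3.82 ± 0.64). Of 36 glutathione S-transferase probes, 13 rose and 5 fell in adults, and 6 rose and 7 fell at 12-16 h, beside the all-probe shares given for those stages. A further 8 rose and 5 fell in pupal stage 2 (all probes 9.3% and 16.0%). Pupal stage 3 had 12 higher and 6 lower (all probes 9.53% and 19.5%). Of 5 juvenile hormone probes, Hmgs, of the early sterol and terpenoid pathway, rose at 12-16 h (2.38 ± 0.34), and Fpps, which makes farnesyl diphosphate, fell from 12-16 h on (-2.02 to -3.13).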

How the data were processed

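The deposited values are log2 ratios of Cy5 over Cy3 for 47616 spots on two-colour glass arrays, each probe spotted 2 times; the direction is given per the labels, and the scale was read from the values. Per the labels' protocols, 20 µg of total RNA was labelled indirectly with random hexamers and hybridized for 16 h at 55 °C, and hybridizations were kept by the SD of their duplicate spots. How background was corrected and arrays normalized is not given in the sources used here. Array c of pupal stage 1 entered no fit, because its values were log2 of integers between 200 and 29365 and thus a 1-channel signal.

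Values at the scale limits (ratios of 0.001 and 100000; 633 spots, 0.0578%) were set missing, ratios were turned by -1 where Cy3 carried the stage, duplicate spots were averaged and each array was centred on its median. limma 3.58.1 (R 4.3.3) was fitted to 23808 probes and 23 arrays with 1 coefficient per stage and a dye term for each probe (residual df 14, prior df 5.71). That term passed for 3632 probes. All tests were two-sided, and p-values were adjusted by Benjamini-Hochberg across all probes, with a threshold of 0.05. The number of arrays limits the precision. The script was tested on simulated data.

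Symbols came from the platform annotation and were used as given there. They were looked up among RefSeq names (assembly Release 6 plus ISO1 MT), in which 12887 of 13455 probes with 1 symbol and all 87 members were found. A further 153 probes had several symbols and 10200 none. No sequence was used. The members and gene lists were chosen with earlier results of these data known. Named were the Halloween genes, Cyp18a1 and Cyp4g1 throughout, up to 4 highest and 4 lowest passing members per comparison whose arrays had 1 sign (for differences, did not overlap), the 10 widest ranges among members passing the F-test, genes with 2 probes, and the list members. Calls given with overlapping arrays were named after their values were seen. Array letters were checked as pairs: deviations of same-letter arrays correlated with r from -0.62 to 0.483 (median -0.0338, 28 of 77 pairs over 0.1). Different-letter arrays had r from -0.572 to 0.58 (median 0.0101, 62 of 154 pairs over 0.1). Arrays were treated as unpaired. The dye effect was not removed from these deviations, so the check cannot exclude a pairing. Alternatives were centring, scaling to one spread, the dye term, the limit values, duplicate spots of SD under 0.3333, a letter block, the 4 arrays of narrow spread, averaging the like arrays a and b within pupal stage 2 and within 3, fitting only the arrays compared, and leaving out each array.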

Additional observations from a re-analysis of the deposited data

Results flagged for a closer look

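For 3 P450 genes the arrays of 1 stage all lay above the 0-4 h reference and those of another all below it, with both stages passing. The differences below were tested in the same limma fit after this was seen, with adjustment over all probes.

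Cyp303a1, the bristle gene, averaged 2.72 in pupal stage 1 and -0.94 at 12-16 h (difference 3.66 ± 0.58, adjusted p = 0.000745), and 2.24 in pupal stage 2 and -0.94 at 12-16 h (3.18 ± 0.49, adjusted p = 0.000411). Its arrays were 3.04 and 2.21 in pupal stage 1, 2.41, 3.00 and 1.39 in pupal stage 2, and -1.07, -0.44 and -1.22 at 12-16 h. The 12-16 h call itself was lost without array a (-0.83) or c (-0.83).

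Shd averaged -1.60 in young adults and 1.27 in larvae (-2.87 ± 0.57, adjusted p = 0.00409), with arrays of -1.47, -0.84 and -2.26 in adults and 0.77, 1.63 and 1.64 in larvae. The larval call itself was lost without any 1 larval array.

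Cyp12b2, a mitochondrial P450 named only for this difference, averaged 1.41 in young adults and -1.55 at 12-16 h (2.96 ± 0.59, adjusted p = 0.00194). The adult arrays were 0.46, 1.35 and 2.82, and the 12-16 h arrays -0.60, -1.29 and -2.38. Its adult call was lost without array c (0.91) and its 12-16 h call without array c of that stage (-1.27).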

How the results depend on the processing

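Counts below are P450 probes passing, and those not given stayed within 1.5 times the reported count. Left uncentred, 52 passed the F-test, and by stage 1 passed at 4-8 h, 57 at 12-16 h, 16 in larvae, 54 in pupal stage 2 and 19 in adults. Uncentred, 0 passed for 12-16 h against 8-12 h, 2 for larvae against 12-16 h, 0 for pupal stage 1 against larvae and 0 for feeding stages. Uncentred values turned negative for Cyp12a4 in pupal stage 2 (-0.46), Cyp28a5 in pupal stage 1 (-0.12), Cyp4e3 in pupal stage 1 (-0.11), Cyp4g1 at 12-16 h (-0.28) and Cyp6g1 in pupal stage 2 (-0.068). With arrays scaled to one spread, 16 passed at 12-16 h, 12 in pupal stage 1, 3 for 8-12 h against 4-8 h, 2 for 12-16 h against 8-12 h and 3 for larvae against 12-16 h. Without the dye term, 4 passed at 4-8 h, 5 at 8-12 h, 12 in pupal stage 1 and 6 for larvae against 12-16 h.

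With close duplicate spots only, 4 passed the F-test, 13 passed in pupal stage 1, 17 in pupal stage 2, 24 in pupal stage 3, and, by successive stages from 8-12 h against 4-8 h, 1, 2, 1 and 0, with 1 for adults against pupal stage 3 and 0 for feeding stages; fewer probes were tested there. With the 4 arrays of narrow spread as a block, 0 passed for pupal stage 1 against larvae. With them left out, 11 passed the F-test, 1 passed at 4-8 h, 4 at 8-12 h, 3 for 12-16 h against 8-12 h and 0 for pupal stage 1 against larvae. With the like arrays a and b averaged within pupal stage 2 and within 3, 7 passed in pupal stage 2. With only the arrays compared, 0, 3 and 10 passed in embryos of 4-8 h, 8-12 h and 12-16 h, 0 in larvae, 2 in pupal stage 1, and 0 for each of 12-16 h against 8-12 h, larvae against 12-16 h and pupal stage 1 against larvae; the F-test needs all stages and has no such value. The cause of these shifts was not tested, apart from the fewer arrays or probes. The replicate block on the array letters left 18 passing the F-test and 29 in adults and moved no count by over 1.5 times.

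Without each array in turn, the counts ran from 14 to 26 by the F-test, 1 to 7, 3 to 10 and 19 to 28 in embryos of 4-8 h, 8-12 h and 12-16 h, 7 to 17 in larvae, 5 to 22, 6 to 14 and 11 to 21 in pupal stages 1, 2 and 3, and 20 to 34 in adults. For successive stages they ran 0 to 0, 2 to 8, 6 to 13, 0 to 6, 0 to 7, 0 to 0 and 0 to 2, and for feeding stages 2 to 4. Of the single calls of named genes, 62 were lost and 49 held with only the arrays compared. Left uncentred, 51 were lost and 55 held, beside the 5 reversed. The losses were 29 when scaled, 23 without the dye term, 21 with the 4 arrays of narrow spread left out and 11 with them as a block. They were 17 with arrays a and b averaged, 5 with the letter block and 1 with limit values kept. With close duplicate spots only, 18 were lost and 57 held, as fewer calls were tested there. Counting each call once per array left out, 117 were lost and 255 held.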
